A study of Mus musculus with 214 samples.

Results

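This account follows 40 genes of the fibrosis and stellate cell program through mouse livers exposed to N-nitrosodimethylamine (NDMA), a DNA-methylating carcinogen that liver enzymes activate. The genes were taken by symbol from a list drawn up with earlier results of these data known, and all 40 were found in both expression tables, which hold 18647 genes for wild-type (WT) livers and 19540 for livers without MGMT, the enzyme that removes methyl groups from the O6 position of guanine. All mice were C57BL6 and carried the RaDR recombination reporter and the gpt transgene (RaDR+/+;GPT+/+, here WT), and the second line also lacked Mgmt (RaDR+/+;GPT+/+;Mgmt-/-, here Mgmt-/-). Treated mice were injected intraperitoneally with 3.5 mg/kg NDMA on postnatal day 8 and 7 mg/kg on postnatal day 15, and controls with saline on the same days. Livers were collected on Day1, Day2 or Day5, at Week10 or at Month10 after the second injection, so that the first 3 times are of suckling mice and the last 2 of adults. In WT there were 21 saline and 26 NDMA livers on Day1, 8 and 8 on Day2, 7 and 8 on Day5, 8 and 8 at Week10, and 10 and 13 at Month10. In Mgmt-/- there were 12 and 12 on Day1, 7 and 8 on Day2, 8 and 8 on Day5, 8 and 8 at Week10, and 12 and 13 at Month10. Per the study's methods, litters were assigned at birth to saline or NDMA, controls were sibling littermates, and separate litters were used where possible. The labels do not name the litters, so litter and treatment cannot be told apart here, and the p-values measure the spread between mice.

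Each value is a normalized count, that is, the reads of a gene in 1 liver divided by that library's size factor, with each genotype normalized by itself. Levels of the 40 genes were therefore compared within a genotype only. Library depth was between 150038 and 4791649 reads in WT (median 1710016) and between 713584 and 7740710 in Mgmt-/- (median 2347670), so that a value near 1 stands for about 1 read in many libraries. The Mgmt gene itself, given on each table's own scale as a check of the labels, was between 13.0 and 130 in WT livers and at most 9.67 in Mgmt-/- livers. Albumin and other hepatocyte genes were abundant in all WT livers, with a summed level of at least 79369. In 2 Mgmt-/- saline Day5 libraries this sum was only 2350 and 1596, against 86003 to 427180 in the other Mgmt-/- livers, whereas 5 kidney genes summed to 22160 and 24915, against at most 21.5 elsewhere. The kidney androgen-regulated protein gene Kap stood at 6147 and 7562 in these libraries, which were left out of the results below except where stated, leaving 6 saline livers on Day5. A further 2 WT NDMA libraries of Day1 had sex-linked genes that went against their labelled sex, and leaving them out changed no count of members by 1.5 times or more.

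Hepatic stellate cells lie between hepatocytes and the sinusoidal endothelium and store vitamin A in the quiescent state. After injury they can lose these stores and become myofibroblasts, which contract through smooth muscle type actin filaments and lay down fibrillar collagen, while inhibitors of matrix proteases slow its removal. Portal fibroblasts, vascular smooth muscle and endothelium make many of the same products, so that the list is not specific to 1 cell type. In bulk tissue, moreover, a change in the number of cells of a type and a change in RNA per cell cannot be told apart.

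In Mgmt-/- livers 3 of the members were higher after NDMA at all 5 times. A further 5 were lower at an early time and higher at Week10, or 3 with libraries scaled to equal totals. These patterns of calls are not set against all genes. The contractile genes Acta2 and Tagln and the filament gene Vim rose at each time by 0.91 to 2.33 on the log2 scale. The protease inhibitor Timp1 was higher at each of the 4 times at which it could be tested. At those times Timp1 passed the filter on low values through the NDMA group alone and so had to differ, as did Acta2 at Week10 and Month10. On Day1 some collagens and stellate genes were lower, with Reln reduced by 2.01 and Col3a1 by 0.69 on the log2 scale, the latter not called on Day1 with equal totals. At Week10 none of the 30 members tested was lower and 22 were higher, where 7.27% of all genes tested were called higher and 3.88% lower. Of the 22, 6 passed the filter on low values through the NDMA group alone, and of the others Col3a1 rose by 1.79 ± 0.29 (SE; 8 saline and 8 NDMA livers). In WT livers Acta2 rose and Reln fell on Day1. No member was called in WT at Week10, where 0.0249% of all genes were higher and 0% lower, or at Month10, where 0% of all genes were called in each direction.

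NDMA and saline livers were compared by limma on log2(normalized count + 1), adjusting for sex and labelled batch where possible. All genes whose mean reached 5 were tested, with Benjamini-Hochberg correction. Genes were called where the corrected p was below 0.05 and the log2 fold change exceeded 0.58 in either direction. All fold changes below are on this scale, which understates the change of genes with few reads. Of the 40 members, 37 passed the filter in at least 1 of the 10 comparisons and 20 in all of them, while Lox, Loxl1 and Tgfb1 passed in none. A total of 31 members were called in at least 1 Mgmt-/- comparison and 15 in at least 1 WT comparison. These totals over several comparisons are not set against all genes, whereas the counts of single comparisons are below.

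Of the 5 contractile and filament genes, Acta2, Tagln and Vim were higher at all 5 times in Mgmt-/-, whereas Myl9 was called at Week10 only and Des was tested at Month10 only and not called. Acta2 encodes alpha smooth muscle actin, the usual marker of myofibroblasts. On Day1 its normalized count in Mgmt-/- saline livers was between 7.26 and 35.8 (median 16.9), and in NDMA livers between 18.5 and 125 (median 53.7). The groups overlapped on Day1, and on Day2 they were apart. Saline livers then ranged from 16.3 to 52.1 (median 27.5) and NDMA livers from 91.0 to 192 (median 116). On Day5 the medians were 25.4 and 72.0, and the lowest NDMA liver, at 43.0, was above the highest saline liver, at 38.9. The 3 early log2 fold changes were 1.61 ± 0.25 (SE), 2.06 ± 0.22 and 1.45 ± 0.28, with limma adjusted p-values of 7.972e-06, 1.265e-07 and 0.0008151. In the adult livers the level of Acta2 was far lower in both groups. At Week10 saline livers held 0 to 5.60 (median 2.53) and NDMA livers 5.29 to 34.9 (median 12.8), a log2 fold change of 2.33 ± 0.46 (SE; limma adjusted p = 0.001035). The Week10 and Month10 calls passed the filter on low values through the NDMA group alone, so that a gene tested this way had to differ.

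Tagln encodes transgelin, an actin-binding protein of smooth muscle and myofibroblasts. Its Mgmt-/- medians on Day1 were 7.19 in saline and 36.4 in NDMA livers, with NDMA livers between 15.0 and 115 and saline livers between 3.32 and 35.4. At Week10 the saline livers ranged from 5.66 to 18.5 (median 9.27) and the NDMA livers from 24.8 to 69.1 (median 44.8), without overlap. The log2 fold changes from Day1 to Month10 were 2.15, 1.41, 1.16, 2.10 and 0.91, all called. Tagln lies at chr9:45929619-45936058 (GRCm38, minus strand) and overlaps Pcsk7 on the other strand. The strand setting of the counting is not given in the sources used here, and Pcsk7 itself was not called in any of the 10 comparisons (log2 fold change 0.02 at Week10 in Mgmt-/-). Vim, which encodes the intermediate filament of mesenchymal cells and of many leukocytes, was called at all 5 times with log2 fold changes between 1.05 and 1.34. At Week10 it was between 16.3 and 37.6 in saline livers (median 23.6) and between 44.5 and 79.6 in NDMA livers (median 52.8). Myl9, a myosin light chain of smooth muscle, had Week10 medians of 4.58 and 12.1 and a log2 fold change of 1.58, against -0.11 on Day5. Des, the muscle-type filament gene that also marks rodent stellate cells, was tested in 1 comparison and not called.

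Promoter windows are shown for 3 contractile and filament members that were called higher at Week10, of which the other was Tagln. RefSeq promoter sequences (GRCm38.p6) were matched for 26 of the 40 members in 28 windows, and the 250 bases before the start were searched on both strands. Serum response factor, a regulator of contractile genes, binds the CArG box, here CC and GG around 6 bases that are each A or T. Such a box was found in 1.47% of all 32851 windows, a shorter form with 5 central bases in 2.59% and TATAAA in 12.4%, and among the members in 3.57%, 7.14% and 10.7% of 28 windows. Capitals mark the 5-base form in Acta2 (83 to 75 bases before the start), the CArG box in Myl9 (161 to 152) and TATAAA in Vim (32 to 27). The windows lie at chr19:34255374-34255623 on the minus strand, chr2:156775214-156775463 and chr2:13574061-13574310. A match describes these letters only, and binding was not measured.
Acta2: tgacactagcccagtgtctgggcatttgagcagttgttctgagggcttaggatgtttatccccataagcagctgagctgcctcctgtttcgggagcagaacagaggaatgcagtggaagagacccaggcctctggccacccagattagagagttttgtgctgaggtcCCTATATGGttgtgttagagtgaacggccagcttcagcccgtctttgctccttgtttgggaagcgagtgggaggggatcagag
Myl9: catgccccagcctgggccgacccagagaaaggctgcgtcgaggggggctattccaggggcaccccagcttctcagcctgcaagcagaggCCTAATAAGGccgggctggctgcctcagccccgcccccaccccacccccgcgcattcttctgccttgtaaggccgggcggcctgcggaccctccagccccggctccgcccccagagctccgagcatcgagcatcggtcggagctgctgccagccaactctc
Vim: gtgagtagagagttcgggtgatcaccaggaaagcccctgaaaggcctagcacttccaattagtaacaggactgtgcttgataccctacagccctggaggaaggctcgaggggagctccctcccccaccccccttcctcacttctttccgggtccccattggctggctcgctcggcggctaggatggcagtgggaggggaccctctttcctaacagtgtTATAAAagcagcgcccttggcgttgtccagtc

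**Figure D1:**
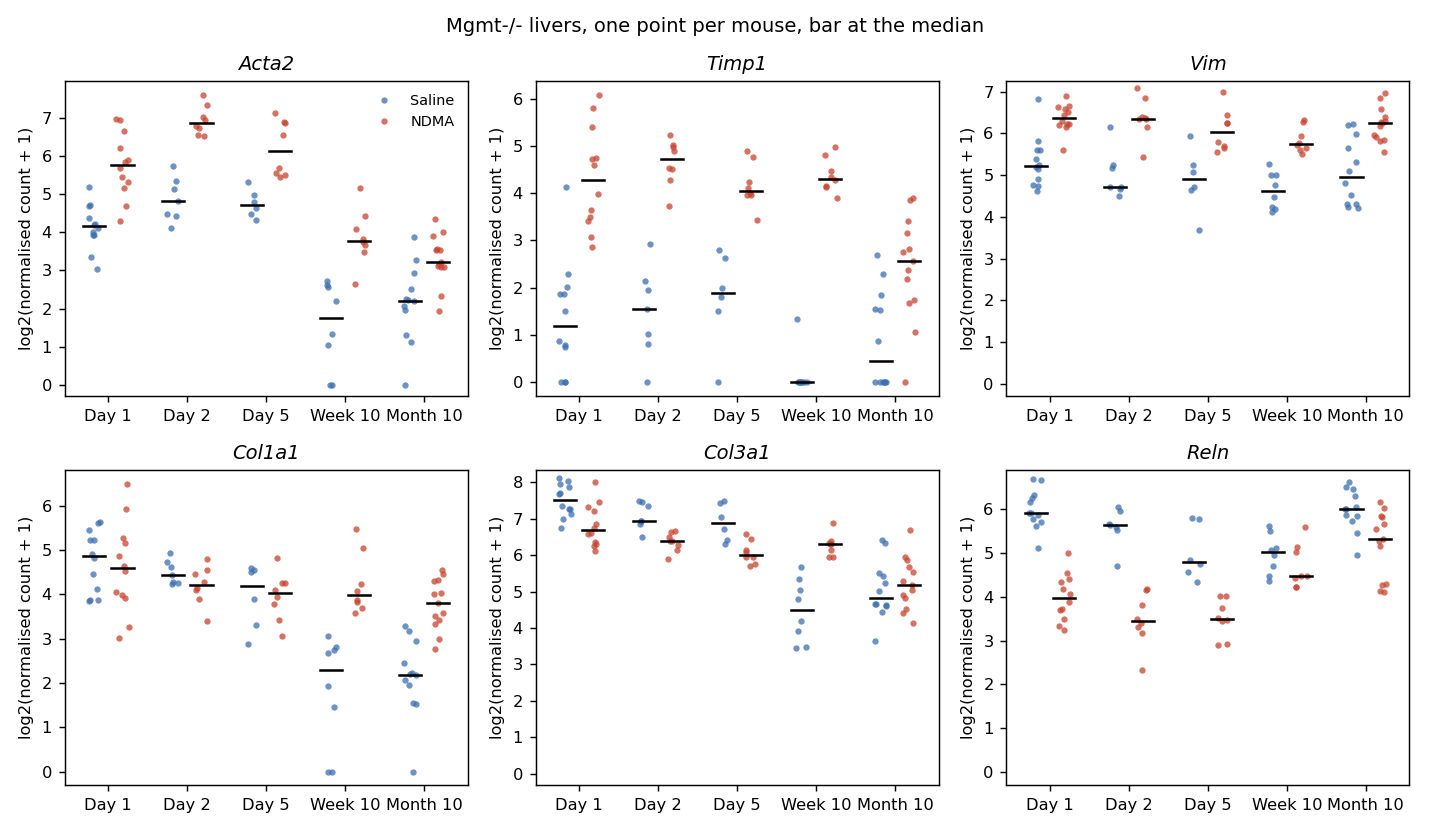
Normalized counts of Acta2, Timp1, Vim, Col1a1, Col3a1 and Reln in Mgmt-/- livers on a log2(normalized count + 1) scale, with 1 point per mouse, a bar at each group's median, and saline beside NDMA at each of the 5 times. Acta2, Vim and Timp1 sit higher after NDMA from Day1, whereas Col3a1 is lower on Day1 (medians 182 and 101) and higher at Week10 (22.0 and 77.8), and Reln is lower on the first days.

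Among the members that are matrix proteases or their inhibitors, Timp1, a secreted inhibitor of metalloproteinases, changed the most in Mgmt-/- where it was tested. In Mgmt-/- saline livers of Day1 it was between 0 and 16.4 (median 1.35), and in NDMA livers between 6.26 and 66.4 (median 19.0). On Day2 the 7 saline livers held at most 6.60 and the 8 NDMA livers at least 12.4, so the groups were apart. The log2 fold changes were 2.98 ± 0.42 (SE) on Day1, 3.19 ± 0.35 on Day2 and 2.38 ± 0.35 on Day5. At Week10 the gene was read once in all saline livers together and 256 times in the NDMA livers, a ratio of depth-scaled counts of 141 with a 95% exact interval of 25.1 to 5588, which covers counting error only. In single livers this was 13.9 to 30.6 after NDMA (median 18.8) and at most 1.51 after saline, and the limma adjusted p was 8.209e-09. At all 4 times Timp1 passed the filter through the NDMA group alone, and at Month10, with a median of 4.88 in NDMA livers, it was not tested. Timp1 lies inside Syn1 on the other strand (chrX:20870166-20874735), and the median of Syn1 was 0 in every group. Timp3, an inhibitor bound to the matrix, and Mmp14, a membrane-bound collagenase, were not called on the early days. At Week10 Mmp14 rose from a median of 17.1 to 37.8 (log2 fold change 1.15) without overlap, and Timp3 from 25.3 to 50.4 (0.77), a call lost with any of 12 of the 16 single livers left out. Mmp2, a gelatinase, had a log2 fold change of 1.68 at Week10 that was not called (limma adjusted p = 0.05755).

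Fibrillar collagens were lower or not called on the first days and higher at Week10. Col3a1 encodes the chain of type III collagen. On Day1 Mgmt-/- saline livers held 106 to 274 (median 182) and NDMA livers 68.3 to 257 (median 101), a log2 fold change of -0.69 ± 0.17 (SE; limma adjusted p = 0.002591). The decreases on Day2 and Day5 were of 0.70 and 0.83 on the log2 scale. At Week10 the direction was the opposite, with saline livers between 9.84 and 50.1 (median 22.0) and NDMA livers between 60.5 and 116 (median 77.8), without overlap (log2 fold change 1.79 ± 0.29, limma adjusted p = 0.0001054). By Month10 the medians were 27.7 and 35.2 and the gene was not called (0.20).

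Col1a1 and Col1a2 encode the chains of type I collagen, the main collagen of scar. Col1a2 had medians of 70.8 and 48.7 on Day1 and log2 fold changes of -0.75 on Day1 and -0.61 on Day2. The Day2 call of Col1a2 was lost with any of 6 of the 15 single livers left out. At Week10 it ranged from 4.08 to 14.1 in saline livers (median 6.69) and from 17.5 to 52.8 in NDMA livers (median 39.9), and its log2 fold change was 2.20 ± 0.27 (SE; limma adjusted p = 3.775e-06). It was still higher at Month10 (1.00, medians 13.1 and 25.0). Col1a1 was not called on any early day, with medians of 28.1 and 23.0 on Day1. At Week10 all 8 NDMA livers, at 10.9 to 43.3 (median 14.8), were above all saline livers, at 0 to 7.31 (median 4.07), with an adjusted p of 0.0007965 by limma. At Month10 its log2 fold change was 1.66 (medians 3.54 and 12.9). Both Col1a1 calls passed the filter through the NDMA group alone. Col5a1 and Col5a2 encode chains of type V collagen, which regulates the width of collagen fibrils. Col5a1 was lower on Day1 (-1.11) and, passing the filter through the saline group alone, on Day5 (-1.38), and had too few reads at Week10, with medians of 1.65 and 4.40. Col5a2 was higher at Week10 by 2.36 (medians 1.93 and 11.9) and at Month10 by 1.08, where 1 NDMA liver at 210.3 stood far above the median of 21.0 and the call was lost under several other settings.

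Of the basement membrane and associated collagens, Col4a1 and Col4a2, the chains of the type IV network, were called at no early time. At Week10 Col4a1 was between 2.83 and 27.1 in saline livers (median 11.4) and between 28.5 and 57.9 in NDMA livers (median 40.6), a log2 fold change of 1.70. Its difference at Month10 was 0.92 (medians 23.5 and 50.0). Col4a2, which starts head to head with Col4a1 and overlaps it at the start, had log2 fold changes of 1.43 at Week10 and 1.18 at Month10. Col14a1, a collagen that associates with fibrils, followed Col3a1, with a decrease of 1.21 on the log2 scale on Day1 (medians 132 and 52.3), of 0.59 on Day5, and an increase of 1.10 at Week10 (medians 36.0 and 74.5). Col6a1, of the microfibrillar type VI collagen, was lower on all 3 early days (-1.19, -0.81 and -0.87), on Day1 passing the filter through the saline group alone, and had too few reads at Week10. The Col6a1 call was lost on Day2 with any of 9 of the 15 single livers left out and on Day5 with any of 10 of the 14, and that of Col14a1 on Day5 with any of 6. Col6a2 was tested in 1 Mgmt-/- comparison and not called.

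Among matrix proteoglycans and glycoproteins, lumican (Lum), which binds collagen fibrils, was not called on the early days. At Week10 its level was 0 to 27.1 in saline livers (median 6.62) and 21.5 to 106 in NDMA livers (median 42.8). The log2 fold change was 2.89 ± 0.51 (SE; limma adjusted p = 0.0004036) and at Month10 1.07. Sparc, a collagen-binding protein, rose by 1.16 at Week10, from 65.2 to 130 in saline livers (median 88.8) to 155 to 297 in NDMA livers (median 213), without overlap. Bgn, the proteoglycan biglycan, was higher at Week10 (1.01, medians 53.4 and 111) and at Month10 (0.68). Dpt and Tgfbi were also called higher at Week10, by 1.38 and 0.73, calls that were lost with any of 11 (Dpt) and any of 13 (Tgfbi) of the 16 single livers left out. Postn encodes periostin, a matrix protein of fibroblasts, and was lower on all 3 early days. Its medians were 47.2 and 17.8 on Day1, 63.9 and 28.4 on Day2 and 43.0 and 26.0 on Day5, with log2 fold changes of -1.37, -1.08 and -0.81. Postn did not follow the collagens at Week10, where its medians were 8.02 and 11.7 and its log2 fold change was 0.56 (limma adjusted p = 0.5397). Eln, the elastin gene, was lower on Day1 (-0.86) and Day2 (-1.09) and nearly absent in adult livers. Thbs1, which encodes thrombospondin 1, an activator of latent TGF-beta, was higher on Day1 (1.15) and Day2 (1.33), both times passing the filter through the NDMA group alone, and was not tested at Week10, where all 8 NDMA livers (3.84 to 21.1) were above all saline livers (at most 2.83). Fn1, the fibronectin gene, which hepatocytes also express, was called at no time. Dcn and Fbn1 complete this group, of which Dcn was lower on Day1 by 0.62 and Fbn1 was not called.

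Of the crosslinking enzymes, the collagen and elastin oxidase Loxl2 was higher at Week10 by 2.00 (medians 2.29 and 10.3) and at Month10 by 1.19, both passing the filter through the NDMA group alone. Lox had medians between 0 and 3.70 in the Mgmt-/- groups and gave no test, as did Loxl1. Among growth factors and receptors, Pdgfra, a receptor of platelet-derived growth factor on mesenchymal cells, was lower on Day1 (-0.92, medians 10.0 and 6.09) and higher at Week10 (1.31 ± 0.28 SE, medians 8.14 and 22.6). Pdgfrb, the receptor that drives stellate cell growth, was lower on Day5 (-1.003). That call was lost with any of 5 of the 14 single livers left out. At Week10 Pdgfrb had a log2 fold change of 1.18 that was not called (limma adjusted p = 0.08164).

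Of the 3 stellate and pericyte identity genes, Reln and Lrat were lower on the early days and Rgs5 was not. Reln encodes reelin, a secreted glycoprotein that marks stellate cells in the liver. On Day1 Mgmt-/- saline livers were between 33.9 and 102 (median 59.1) and NDMA livers between 8.54 and 31.0 (median 14.8), so that each of the 12 NDMA livers was below each saline liver. The groups were also apart on Day2 (medians 48.8 and 9.94) and Day5 (medians 26.8 and 10.2). The log2 fold changes were -2.01 ± 0.19 (SE), -2.12 ± 0.26 and -1.51 ± 0.27, with limma adjusted p-values of 2.248e-10, 4.145e-07 and 0.0001612. At Week10 the groups overlapped almost fully, with medians of 31.5 and 21.3 and a log2 fold change of -0.28, and at Month10 Reln was again lower (-0.74, medians 63.6 and 39.4). Lrat encodes the enzyme that esterifies retinol for storage in stellate cells. It was lower on Day1 (-1.36, medians 46.1 and 20.3) and Day2 (-0.77, medians 41.0 and 29.0) and not called later, with a log2 fold change of 0.01 at Week10. Rgs5, a pericyte gene, was higher at Week10 by 0.60 (medians 47.8 and 76.5), a call lost with any of 4 of the 16 single livers left out. It was called at no other time, with log2 fold changes of 0.15, 0.24 and 0.09 on the early days. None of the 3 stellate identity genes was lower at Week10, when collagens and contractile genes were higher.

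**Figure D2:**
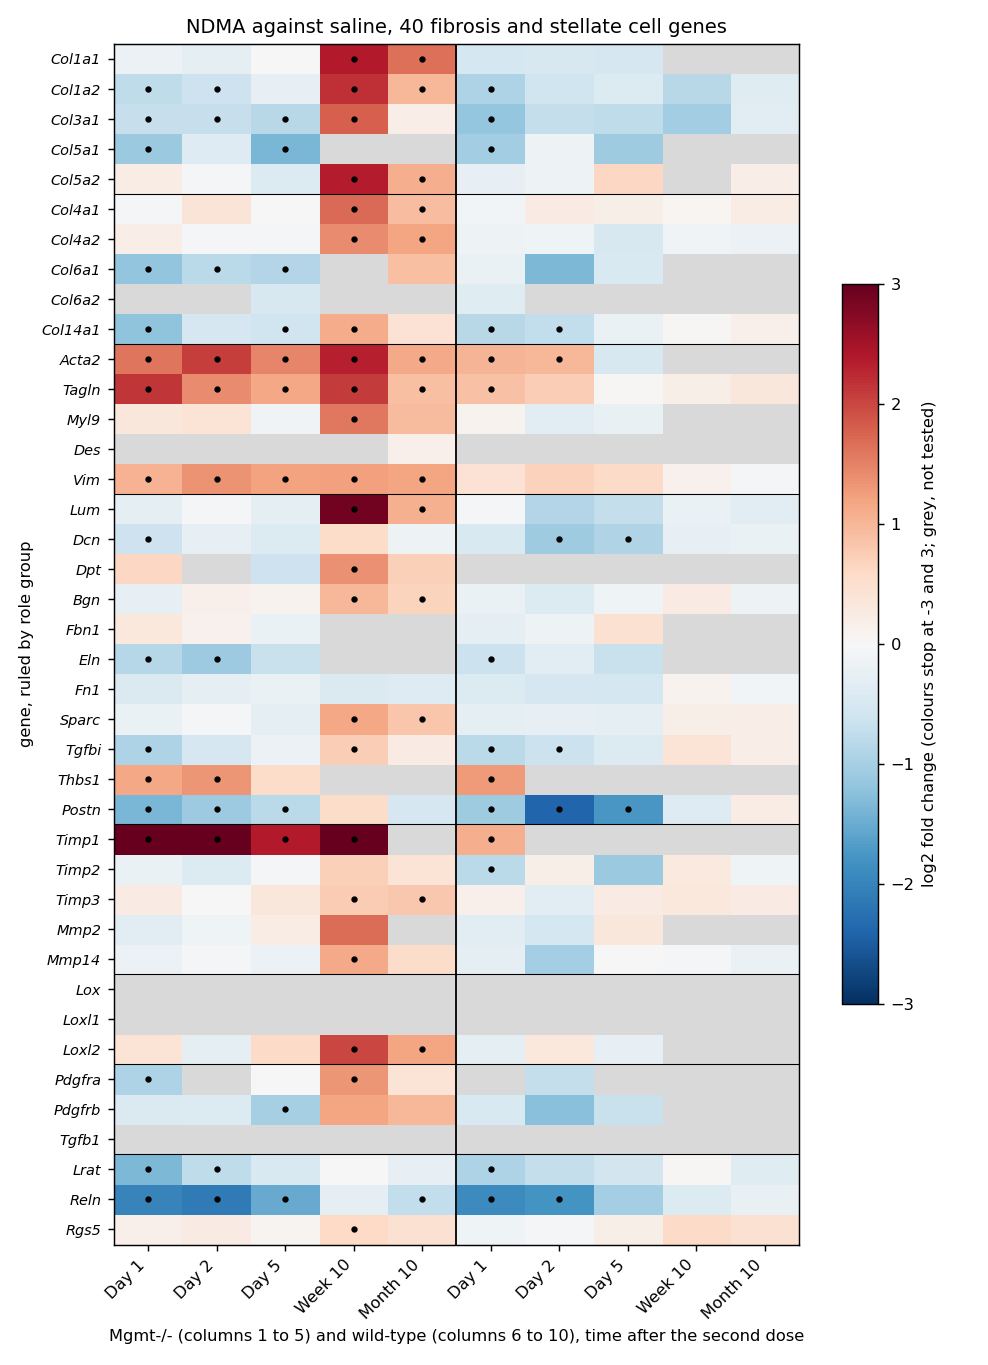
Heat map of log2 fold changes, NDMA against saline, for the 40 members (rows, by role) in the 10 comparisons (columns, 5 times in each genotype), with dots on called values and grey where a gene was not tested. In Mgmt-/- Col3a1 and Col14a1 turn from lower at an early time to higher at Week10, as does Col1a2 on this scale but not with equal totals, and the WT columns carry no dot at Week10 or Month10.

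By counts, Mgmt-/- Day1 had 5 members higher and 12 lower of 35 tested, where 9.06% of all genes tested were called higher and 8.64% lower. On the deposited scale the members called lower were thus far over that background, and those called higher much closer to it. On Day2 there were 5 higher and 7 lower of 33 (all genes 12.4% and 7.5%), and on Day5 4 higher and 7 lower of 36 (11.1% and 6.71%). Timp1 on each of these days and Thbs1 on Day1 and Day2 passed the filter through the NDMA group alone, and Col6a1 on Day1 and Col5a1 on Day5 through the saline group alone. With the 2 libraries that held kidney transcripts kept, the Day5 counts were 1 higher and 4 lower, and Acta2, Tagln, Vim, Reln and Postn were not called. At Week10 there were 22 higher and 0 lower of 30, against the all-gene shares given above. An unadjusted p under 0.05 was found for 26 of the 30 members and for 2332 of 9681 genes. In 10 of the 30 all NDMA livers were above all saline livers at Week10, as in 2.4% of all genes tested. Of the 10, Col1a1, Col5a2 and Timp1 passed the filter through the NDMA group alone, and the other 7 were among the 22 with a mean of at least 5 in both groups, where the share of all genes was 1.8%. Month10 had 13 higher and 1 lower of 30 (4.75% and 2.99%), and 8 of the 30 passed the filter through the NDMA group alone, of which 3 were called (Col1a1, Acta2 and Loxl2). The median log2 fold change of the members tested was -0.20, -0.13, -0.19, 1.27 and 0.75 from Day1 to Month10, against 0.02, 0.03, 0.03, 0.04 and -0.01 over all genes tested. At Week10, 8 members passed the filter through the NDMA group alone, of which 6 were called; of the 22 with a mean of at least 5 in both groups, 16 were called.

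By role at Week10, the members higher were 4 of 4 fibrillar collagens tested, 3 of 3 basement membrane and associated collagens, 4 of 4 contractile and filament genes, 5 of 8 proteoglycans and glycoproteins and 3 of 5 proteases and inhibitors. These include Col1a1, Col5a2, Acta2, Dpt and Timp1, which were tested only because the NDMA group lifted them over the filter and so had to differ. On Day1 the same groups held 0, 0, 3, 1 and 1 members higher, and 3, 2, 0, 4 and 0 lower. Col1a2, Col3a1, Col14a1, Tgfbi and Pdgfra were lower at an early time and higher at Week10. Of these, Col3a1, Col14a1 and Tgfbi were so with equal totals too. The Week10 call of Tgfbi was lost with any of 13 of the 16 single livers left out. A total of 13 members were higher at both Week10 and Month10. Of the 13, Col1a1, Acta2 and Loxl2 passed the filter through the NDMA group alone at both times. Neither pattern is set against all genes. The comparison of scales bears on the early decreases. With each library scaled to the same total, the median of all genes tested rose from 0.02 to 0.20 on Day1, from 0.03 to 0.20 on Day2, from 0.03 to 0.17 on Day5 and from 0.04 to 0.24 at Week10. The share of all calls that were higher then moved from 51.2% to 76.2%, from 62.2% to 80.3%, from 62.4% to 77.9% and from 65.2% to 86.8%. Members called lower became 7, 4 and 4 on the early days. These counts were without Col1a2 and Col3a1 on Day1 and Day2 and without Eln and Pdgfra on Day1. Members called higher were 5, 5 and 4 on these days and 25 at Week10. Shares of all genes called in each direction with equal totals are not given. The member counts on that scale therefore cannot be set against a background. Reln and Postn were lower, and Acta2, Tagln, Vim and Timp1 higher, on either scale. Within the 2 batches of Mgmt-/- Day1 livers the log2 fold changes of Acta2 were 1.14 and 1.85, of Timp1 2.21 and 3.36, of Reln -2.26 and -1.88, and of Col3a1 -0.48 and -0.79; all Week10 and Month10 livers of Mgmt-/- came from 1 batch.

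**Figure D3:**
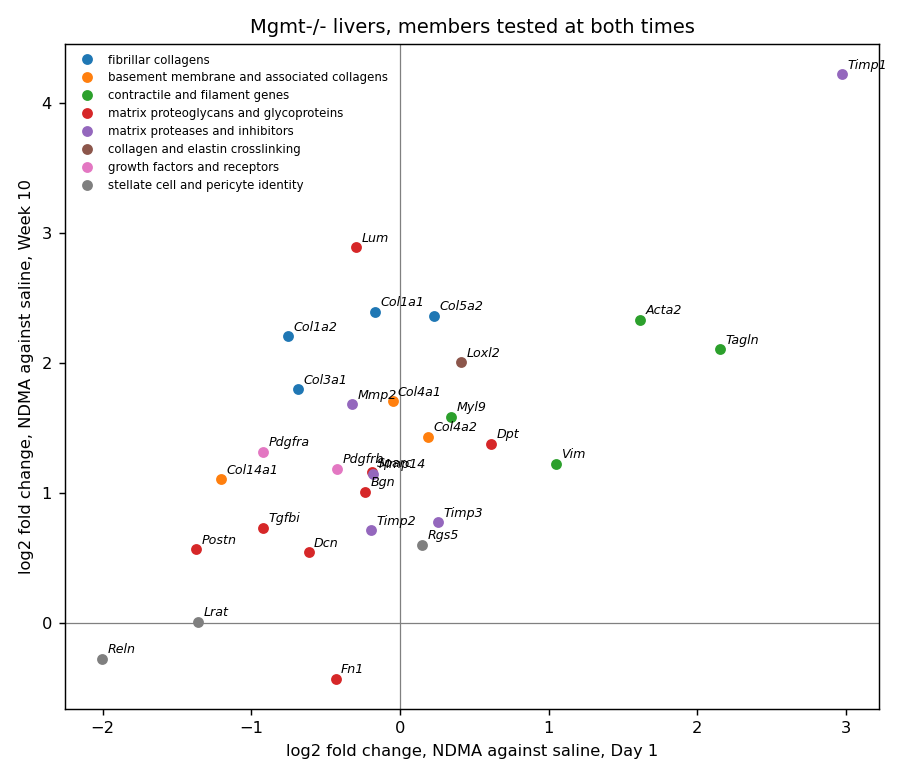
Log2 fold change on Day1 (x axis) against that at Week10 (y axis) in Mgmt-/- livers for the 30 members tested at both times, 1 point per gene, with lines at 0. Of these, 17 were below 0 on Day1 and above 0 at Week10, 11 above 0 at both, 2 below 0 at both and 0 above 0 on Day1 and below it at Week10.

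Of all genes tested at both times, 18.3% were below 0 on Day1 and above it at Week10. Among members that reached the mean of 5 in both groups at Week10, 14 of 22 were so, against 18.2% of all such genes. With equal totals the count was 13 of 30 members, and 16% of all genes. The share above 0 at both times was 36.7% of members and 35.5% of all genes. With equal totals it was 50% and 55.7%, so that this share was no feature of the members.

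The change of the NDMA effect with time was tested as a treatment by time term in Mgmt-/- livers. Between Day5 and Week10 the term was called for 14 of 35 members, all toward higher at Week10, where 3.54% of all genes were called in either direction. An unadjusted p under 0.05 was found for 28 members and for 1535 of 10094 genes. The median term was 1.46 for the members and 0.03 over all genes. It was 2.62 for Col3a1, 2.45 for Col1a2, 2.39 for Col1a1, 2.77 for Col5a2 and 3.19 for Lum. For Acta2, Tagln, Vim and Timp1 it was 0.88, 0.94, 0.02 and 1.83, none of them called. The term tests a change in the size of the NDMA effect, and not a change of sign. Reln had a term of 1.23 (limma adjusted p = 0.05315). Between Day1 and Day2 and between Day2 and Day5, limma called 0 members (2 and 0 had an unadjusted p under 0.05), where 0.0198% and 0.00991% of all genes were called. Between Week10 and Month10 Col3a1, Lum and Timp1 had negative terms (-1.60, -1.80 and -2.69; all genes 1.06%), a smaller NDMA effect in the older livers. Day5 and Week10 livers came from 2 different batches. Both batches are present on Day1, so that batch could enter as a term. Its interaction with treatment was not fitted.

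Marker lists for other cell types were also examined, and their part in these changes was not tested. At Week10 in Mgmt-/- the summed level of 10 macrophage and Kupffer cell genes was 635 in saline and 1401 in NDMA livers (medians, Lyz2 the most abundant), with 5 of 9 tested genes higher. The 7 cholangiocyte genes summed to 86.9 and 830.0, nearly all from Spp1, which macrophages and stressed hepatocytes also express. Hepatocyte genes summed to 187242 and 132568 (Alb the most abundant), with 1 of 5 lower. The 9 endothelial genes, at 344.7 and 383.8 (Clec4g) in saline and NDMA livers, had 1 of 8 higher. The defining kidney genes Kap, Umod and Slc12a1 were at 0. Proliferation genes summed to 34.9 and 119 (Birc5), with 3 of 4 higher, and neutrophil genes to 67.4 and 168 (S100a8), with none of 3 called. On Day1 the hepatocyte genes were at 302754 and 196701, with 3 of 5 lower, the endothelial genes at 495 and 397, with 4 of 8 lower and 1 higher, and the macrophage genes at 904 and 1116, with 5 of 10 higher and 3 lower. Red cell precursor genes, high in the young liver, were at 39157 and 22343, with 6 of 6 lower (Hbb-bs the most abundant). T cell genes were at 24.1 and 51.5 (Cd3g), with 1 of 3 higher. On Day2 the macrophage genes were at 908.3 and 1964, with 7 of 10 higher, and the T cell genes at 24.7 and 113, with 3 of 3 higher. On Day5 they were at 957 and 1834 and at 25.5 and 142, again with 7 of 10 and 3 of 3 higher. At Month10 in Mgmt-/- 3 of 8 macrophage genes were higher, 1 of them through the NDMA group alone. Of 2 cholangiocyte genes 1 was higher, without overlap. Higher too were 1 of 9 endothelial, 1 of 5 hepatocyte and 1 of 4 proliferation genes, the last through the NDMA group alone. The shares of all Mgmt-/- genes called higher were 9.06% on Day1, 12.4% on Day2, 11.1% on Day5, 7.27% at Week10 and 4.75% at Month10. Called lower were 8.64% on Day1 and 3.88% at Week10. The Week10 count of 1 of 8 endothelial genes was near its share. Shares in WT on Day1 were 5.01% higher and 4.19% lower. Of the macrophage genes called higher, 2 on Day1, 3 on Day2, 3 on Day5 and 2 at Week10 passed the filter through the NDMA group alone, as did the T cell gene Lck on Day2. In WT on Day1 the macrophage genes were at 786 and 980.3, with 4 of 8 higher and 1 lower, and the T cell genes at 21.1 and 41.1, with 2 of 3 higher, 1 of each list through the NDMA group alone. Of 8 smooth muscle genes fixed as a separate list, 2 were tested, and limma called neither at any Mgmt-/- time; Mylk, the kinase of the myosin light chain, had a log2 fold change of -0.36 at Week10.

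Other genes of the pathway, taken from fixed lists, were examined in Mgmt-/- livers. Of the PDGF ligands, Pdgfa was higher at all 5 times by 0.99 to 2.00, on Day5 passing the filter through the NDMA group alone, with medians of 12.0 and 36.3 at Week10. Its receptor Pdgfra was lower on Day1 and higher at Week10, as given above. Of 27 TGF-beta pathway genes, 3 of 18 tested were higher and 3 lower on Day1, and 3 of 19 were higher at Week10, among them Pmepa1 through the NDMA group alone. Of all genes, 9.06% were higher and 8.64% lower on Day1 and 7.27% higher at Week10. Ltbp4, which tethers latent TGF-beta to the matrix, was lower on the 3 early days (-1.91, -1.75 and -1.60), as was the pseudoreceptor Bambi (-0.92, -0.84 and -1.16), both passing the filter through the saline group alone on Day2 and Day5. Tgfbr2, the type II receptor, was higher on Day5 (1.07), at Week10 (0.73) and at Month10 (0.68), and Tgif1, a corepressor, at 4 times (0.73 to 0.82). Of 14 collagen processing genes, 3 of 12 were higher (Plod2 through the NDMA group alone) and 1 lower on Day1 and 4 of 10 higher at Week10. Adamts2, the procollagen N-peptidase, was lower on Day2 (-0.60) and Day5 (-0.85) and higher at Week10 (2.30, medians 8.70 and 40.8), the same order as Col3a1. Pcolce, an enhancer of procollagen C-peptide removal, was higher at Week10 (0.94) and Month10 (0.96), and Serpinh1, the collagen chaperone, on Day1 (0.67) and at Week10 (1.03). Mmp12, the macrophage elastase, was higher at all 5 times by 2.90 to 4.35, with saline medians of at most 0.943 and a median of 39.6 in Week10 NDMA livers. At all times but Day5 it passed the filter through the NDMA group alone.

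Other stellate cell genes outside the 40 members were mostly lower on the early days where they were called. Of 19 listed, 14 were tested on each early day. On Day1 there were 1 higher and 6 lower, on Day2 2 higher and 6 lower, and on Day5 2 higher and 7 lower. At Week10 2 of 15 were higher and 2 lower. Of all genes, 9.06% were higher and 8.64% lower on Day1, and 12.4% and 7.5% on Day2. On Day5 the shares were 11.1% and 6.71%, and at Week10 7.27% and 3.88%. The early counts higher were near these shares. Colec10, a collectin that stellate cells secrete, was lower at all 5 times, by 1.84 on Day1 (medians 47.5 and 13.0) and 0.98 at Week10 on the log2 scale. Ednrb, an endothelin receptor of stellate and endothelial cells, was higher at all 5 times, by 0.64 to 1.83, with Week10 medians of 16.1 and 52.6 and no overlap. Angptl6 and Pth1r were each lower at 4 times, with log2 fold changes on Day5 of -2.22 and -1.55, where both passed the filter through the saline group alone, as they and Vipr1 did on Day2. Portal fibroblast and mesothelial genes were higher in 2 of 4 tested at Week10, both (Entpd2 and Fbln2, chosen after their values were seen) passing the filter through the NDMA group alone. On the early days 1 of 8, 1 of 8 and 1 of 7 were higher and 2, 0 and 0 lower, with medians of -0.39, -0.35 and -0.19. The counts higher were near the all-gene shares above. The 1 higher was Cd34, which endothelium also expresses, on Day1 through the NDMA group alone.

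WT livers showed part of the early Mgmt-/- pattern, mostly on Day1, and Vim was called in no WT comparison. On Day1 Acta2 was between 11.1 and 39.3 in 21 saline livers (median 18.6) and between 10.9 and 120 in 26 NDMA livers (median 39.5), a log2 fold change of 1.01 ± 0.17 (SE; limma adjusted p = 4.474e-06). The groups overlapped. Reln was between 15.2 and 139 in saline livers (median 57.7) and between 6.83 and 60.6 in NDMA livers (median 13.96), a log2 fold change of -1.90 ± 0.18 (SE; limma adjusted p = 1.671e-11). Tagln (0.89), Timp1 (1.09) and Thbs1 (1.29) were higher, the last 2 passing the filter through the NDMA group alone, and Col3a1 (-1.15), Col1a2 (-0.94), Col5a1 (-1.04), Col14a1 (-0.83), Lrat (-0.92) and Postn (-1.07) were lower. Day1 WT livers came from 3 batches. In the smallest of them, with 4 saline and 6 NDMA livers, the log2 fold changes of Acta2 and Timp1 were 0.15 and -0.20, against 1.31 and 0.34 in the second batch and 1.18 and 2.25 in the third, whereas Reln was -1.10, -1.96 and -2.24 and Col3a1 -0.51, -1.31 and -1.36. The increase of Timp1 thus rested mainly on 1 batch, and the decreases were seen in all 3.

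**Figure D4:**
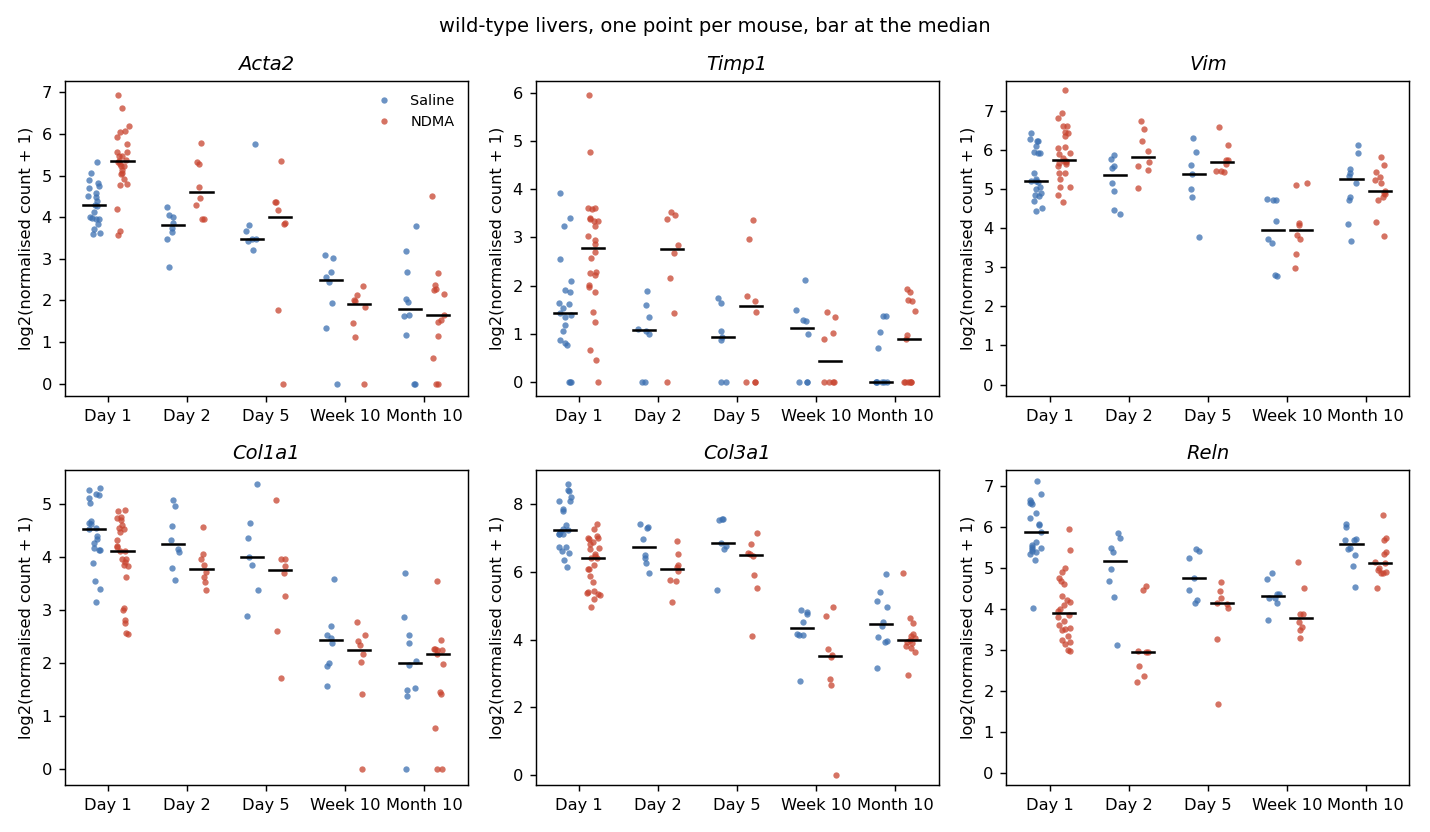
Normalized counts of Acta2, Timp1, Vim, Col1a1, Col3a1 and Reln in WT livers on a log2(normalized count + 1) scale, with 1 point per mouse, a bar at each group's median, and saline beside NDMA at each of the 5 times. Acta2 is higher (medians 18.6 and 39.5) and Reln lower (57.7 and 13.96) after NDMA on Day1, and the groups lie over each other at Week10 and Month10.

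In all, 4 members were higher and 10 lower of 34 tested in WT on Day1 (all genes 5.01% and 4.19%), with a median of -0.30 against -0.03. Of the 4 higher, 2 (Timp1 and Thbs1) were tested through the NDMA group alone. On Day2 1 was higher, Acta2 (0.99, limma adjusted p = 0.04383), and 5 lower of 32 (all genes 3.33% and 2.91%). This increase was not called by edgeR or DESeq2, which used 5 of the 8 saline livers, so that test and livers changed together. It was also not called with any of 10 of the 16 single livers left out. With equal totals the share of calls that were higher moved from 54.5% to 65.3% on Day1 and from 53.4% to 68.0% on Day2. On Day5 limma called 0 members higher and 2 lower of 31 (2.22% and 1.39%). These were Postn, with medians of 36.8 and 10.0 (-1.75), and Dcn, the proteoglycan decorin, which was also lower on Day2 (-1.07) and by 0.89 on Day5. The Day5 call of Dcn was lost with any of 9 of the 15 single livers left out. Postn was lower at all 3 early times, with medians of 42.4 and 19.1 on Day1 and 58.7 and 13.7 on Day2. At Week10 limma called 0 of 20 members (1 had an unadjusted p under 0.05) and at Month10 0 of 21 (again 1), near the all-gene shares given above. Over all genes, 350 of 8048 and 757 of 9254 had an unadjusted p under 0.05. Neither edgeR nor DESeq2 on whole reads called any member. Col3a1 had medians of 19.5 in saline and 10.4 in NDMA livers at Week10, and Col1a2 of 8.78 and 5.58, with log2 fold changes of -1.03 and -0.83 that were not called.

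On Day1, 13 members were called in the same direction in both genotypes, 76.5% of the 17 called in Mgmt-/- and 92.9% of the 14 called in WT. Over all genes 636 were, 35.7% of those called in Mgmt-/- and 76.6% of those called in WT. The difference between genotypes was tested with an edgeR genotype by treatment term on whole reads. On Day1 it was called for 0 of 36 members, on Day2 for 0 of 34 and on Day5 for 0 of 33. Of all genes, 0.00993%, 4.06% and 2.51% were called. An unadjusted p under 0.05 was reached by 6, 7 and 5 members. Over all genes this was reached by 979 of 10068, 1607 of 9283 and 1337 of 8677. With a mean of at least 20 reads, which tests fewer genes, Tagln was called on Day1 (1.203, edgeR adjusted p = 0.0489) and Acta2 on Day5 (1.75, edgeR adjusted p = 0.04051). In the test over all genes the term of Tagln on Day1 was 1.18 ± 0.28 (SE; edgeR adjusted p = 0.07231). For Acta2 it was 0.44 ± 0.30 (SE), 1.09 ± 0.40 and 1.68 ± 0.52 on these days, and for Reln -0.05 ± 0.30, -0.09 ± 0.49 and -0.72 ± 0.41. At Week10 15 of 21 members and 1455 of 7138 genes had an unadjusted p under 0.05. The term was called for 7.13% of all genes and for 9 members, all with a higher log2 fold change in Mgmt-/- than in WT. These were Col1a2 (2.53), Lum (2.20), Col3a1 (2.09), Tagln (2.00), Col4a1 (1.39), Col14a1 (1.05), Sparc (1.01), Dcn (0.81) and Timp1, whose fitted term of 6.69 rests on near-zero counts and depends on the prior count. For Col1a2 and Col3a1 the WT fold changes were negative, though not called, and Dcn was not called within Mgmt-/- at Week10. At Month10 Vim (1.09) and Bgn (0.91) were called of 21 members, and 1.58% of all genes. An unadjusted p under 0.05 was found for 10 members and for 1269 of 8660 genes. The genotypes share no batch on Day2, Day5 or at Week10, and there genotype and batch cannot be told apart.

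A sex by treatment term was called for 0 members in any comparison by limma, with between 0 and 3 members at an unadjusted p under 0.05. Of all genes, 0% were called on Day1, Day2 and Day5 in Mgmt-/- and at all 5 times in WT, and 0.114% and 0.338% at Week10 and Month10 in Mgmt-/-. In WT on Day2, on Day5 and at Week10 sex and batch coincide and cannot be told apart.

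Against these differences stands a large decrease of the same genes with age in saline livers, which sets the level that NDMA livers were compared with. From Day5 to Week10, 17 of 32 members were lower in Mgmt-/- and 21 of 32 in WT, and none was higher. Of all genes, 2.21% were higher and 2.77% lower in Mgmt-/-, and 3.92% and 7.92% in WT. The median log2 difference was -1.58 in Mgmt-/- and -1.28 in WT, against -0.01 and -0.10 over all genes. Sparc fell by 2.29 and 2.34 on the log2 scale in Mgmt-/- and WT, Col3a1 by 2.73 and 2.59, Col1a1 by 2.94 and 1.65, Acta2 by 3.01 and 1.73, Eln by 3.77 and 2.84 and Postn by 2.29 and 2.61. In saline Mgmt-/- livers the median of Col3a1 was 118 on Day5 and 22.0 at Week10, and in WT 115 and 19.5. Reln and Rgs5 were not called (Reln -0.48 in each genotype), while Lrat was lower in WT (-0.85, limma adjusted p = 0.007982) and not called in Mgmt-/- (-0.37). The Week10 Mgmt-/- NDMA livers, with a Col3a1 median of 77.8, thus had a median between those of the saline livers of the 2 ages. Their Acta2 median of 12.8 likewise lay between 25.4 and 2.53. Mgmt-/- livers of Day5 and Week10 share no batch and are linked in the fit only through Day1 livers. The medians themselves are not adjusted for batch.

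**Figure D5:**
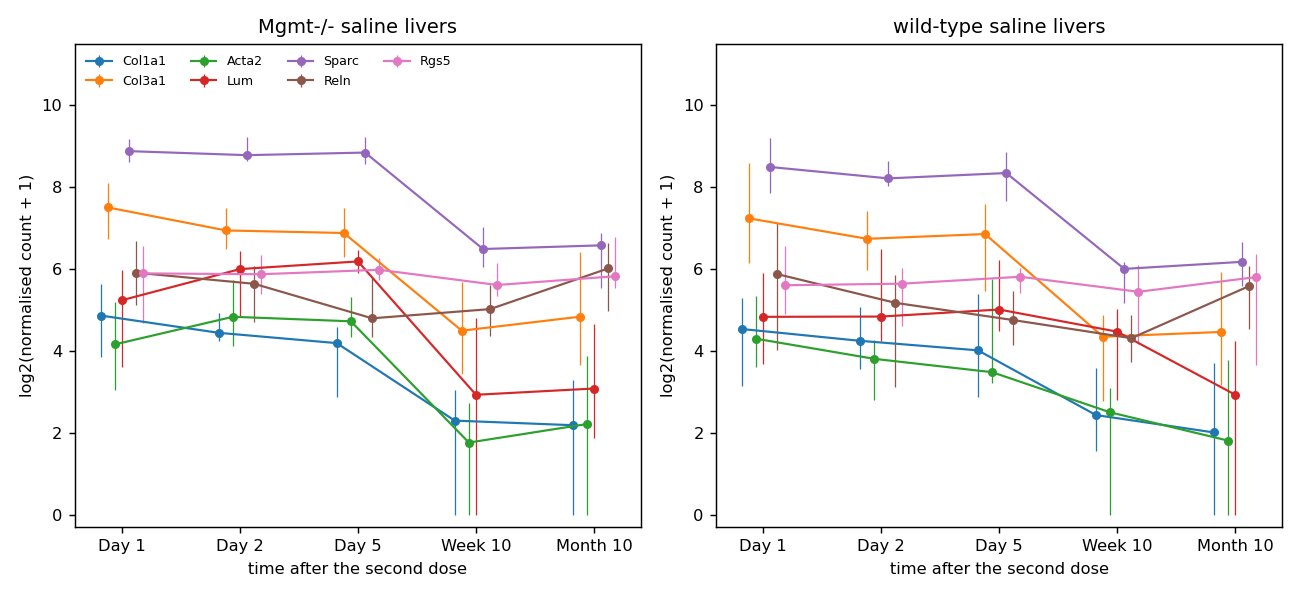
Median normalized count with bars from the lowest to the highest saline liver at the 5 times, on a log2(normalized count + 1) scale, for Col1a1, Col3a1, Acta2, Lum, Sparc, Reln and Rgs5 in each genotype. Col3a1 drops between Day5 and Week10 (118 to 22.0 in Mgmt-/-, 115 to 19.5 in WT). The fitted difference of Reln was smaller (-0.48 in each genotype) and not called.

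Within the suckling period few members were called in saline livers. From Day1 to Day5, Tagln was higher (1.02) and Fn1 and Reln lower (-0.84 each) in Mgmt-/-, where 2.21% of all genes were higher and 3.02% lower, and limma called 0 of 32 members in WT (0.243% and 0.188%). The WT livers of Day1 and Day5 share no batch, and only Month10 livers, which share batches with each, link them in the fit. Without a batch term 6 members were lower and Reln, Loxl2 and Eln took the opposite sign, so that this comparison depends on the batch term. From Week10 to Month10, 9 members were higher and 0 lower in Mgmt-/-, and 9 higher and 2 lower (Myl9 -1.76, Lum -1.37) in WT. Of all genes, 31% were higher and 20% lower in Mgmt-/- and 39.8% and 21.2% in WT, and 32 members were tested in each genotype. With equal totals 21 members in Mgmt-/- and 16 in WT were higher. The all-gene shares above are for the deposited scaling, so these 2 counts cannot be set against them.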

How the data were processed

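Liver RNA was profiled as 3′ digital gene expression libraries. Alignment by the authors used STAR and GRCm38/mm10, ESAT assigned the reads to genes, and DESeq2 size factors scaled them, so that the deposited values are this signal, a normalized count, with 1 table per genotype. Tool versions, annotation and strand setting are not given in the sources used here. Of 214 labelled mice, 213 had a column. Whole reads were recovered from the value steps in 209 columns, where every value was a whole multiple of 1 step, and the other 4 were left out of count tests.

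Groups, sex and batch came from the labels. NDMA was tested against saline within each genotype and time with limma 3.58.1 (trend, robust) in R 4.3.3 on log2(value + 1), for genes with a mean of at least 5, with sex and batch as terms where they could be fitted. Benjamini-Hochberg adjustment ran over all genes tested, and genes were called below an adjusted p of 0.05 where the log2 fold change exceeded 0.58 in either direction. Saline ages, treatment by time and sex by treatment used the same model, and genotype by treatment used the quasi-likelihood test of edgeR 4.0.16 with TMM factors on the recovered reads. The models were tested on simulated data. Alternatives were other pseudocounts, filters, covariates and scalings, edgeR, DESeq2 1.42.0, and libraries left out.

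The members, lists and tests were chosen with earlier results of these data known. Described in full were the first gene of each of 8 role groups and up to 14 further members called in at least 2 Mgmt-/- comparisons, ranked by mean absolute log2 fold change. Of each pathway list, up to 4 genes with the most Mgmt-/- calls could be named. Genes named beyond this rule were chosen after their values were seen.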

Additional observations from a re-analysis of the deposited data

Results flagged for a closer look

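In 12 of 224 groups of 4 to 10 livers examined for the named members, the highest liver stood far from the rest of its group, by the gap between it and the next liver relative to the range. For normally distributed values the cutoffs used flag about 1 in 20 groups, counting the highest and the lowest liver. Normalized counts were taken without a log here, so that this rate need not hold. In Mgmt-/- these were Vim at 70.4 in a saline liver of Day2, Postn at 44.7 in an NDMA liver of Day5, Col1a2 at 98.8 and Eln at 23.0 in 1 saline liver of Day5, and Col3a1 at 116 in an NDMA liver of Week10. At Week10 there were also 3 saline livers, with Timp1 at 1.51, Lrat at 51.0 and Col1a2 at 14.1. In WT these were Col1a1 at 22.7 in an NDMA liver of Day2, Col1a1 at 32.8 and Col14a1 at 107 in 1 NDMA liver of Day5, and Acta2 at 52.9 in a saline liver of Day5.

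The NDMA effect differed between the genotypes by the genotype by treatment term, in log2 units, at Week10 for Col1a2 (2.53), Col3a1 (2.09), Col4a1 (1.39), Col14a1 (1.05), Tagln (2.00), Lum (2.20), Dcn (0.81), Sparc (1.01) and Timp1 (6.69, from near-zero counts), and at Month10 for Vim (1.09) and Bgn (0.91).

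The NDMA effect differed between Day5 and Week10 in Mgmt-/- livers by the treatment by time term for Col1a1 (2.39), Col1a2 (2.45), Col3a1 (2.62), Col5a1 (2.59), Col5a2 (2.77), Col4a1 (1.71), Col4a2 (1.46), Col6a1 (1.87), Col14a1 (1.69), Lum (3.19), Dcn (0.95), Sparc (1.46), Mmp14 (1.32) and Pdgfrb (2.19). Between Week10 and Month10 it differed for Col3a1 (-1.60), Lum (-1.80) and Timp1 (-2.69). These terms were called for 3.54% and 1.06% of all genes. Day5 and Week10 livers came from different batches.

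In the 2 Mgmt-/- saline Day5 libraries with kidney transcripts, which were left out of the main comparisons, 20 members were above all 6 other saline livers of that day, among them Acta2, Tagln, Col1a1, Col4a1 and Rgs5. A further 8 were below all 6, namely Lum, Dcn, Eln, Fn1, Tgfbi, Postn, Lrat and Reln.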

How the results depend on the processing

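No named member called for NDMA against saline changed sign under the alternatives below, but within single batches Timp1 did in WT on Day1 (-0.20 in 1 of 3). A stricter mean of at least 20, which tests fewer genes, gave fewer members higher in Mgmt-/- (3 on Day1, 3 on Day2, 13 at Week10, 5 at Month10) and in WT on Day1 (2), and 4 lower in Mgmt-/- on Day5. In the saline ages it gave 9 lower (Mgmt-/-) and 10 lower (WT) from Day5 to Week10, 0 higher from Day1 to Day5 in Mgmt-/- and 1 lower from Week10 to Month10 in WT. In the genotype term a mean of at least 20 reads gave 1 higher on Day1 and on Day5. Equal totals gave 7, 4 and 4 members lower on Day1, Day2 and Day5 in Mgmt-/-, 3 lower on Day2 in WT, 21 (Mgmt-/-) and 16 (WT) higher from Week10 to Month10 in saline livers, and 0 higher from Day1 to Day5 in Mgmt-/-, as did a pseudocount of 5. Keeping the libraries with kidney transcripts gave 1 higher and 4 lower on Day5, and 4 lower from Day1 to Day5. In WT on Day1, batch 191212Eng alone gave 2 higher. In WT on Day2, no filter and no covariates each gave 0 higher and 3 lower, and libraries of at least 300000 reads 3 higher. On Day5 libraries of that depth gave 1 higher. On Day2 edgeR and DESeq2 gave 0 higher in WT with 5 of the 8 saline livers, so that test and livers changed together. Without a batch term, 6 members were lower from Day1 to Day5 in WT saline livers, and Reln (-1.09), Loxl2 (-1.06) and Eln (-0.95) took the opposite sign. The counts in this paragraph are not set against the shares of all genes under each setting. Other causes were not tested.

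Leaving out single livers gave 18 to 23 members higher at Week10 in Mgmt-/-, with calls lost only among Dpt, Tgfbi, Timp3 and Rgs5. It gave 5 to 8 lower on Day2 (Col1a2 and Col6a1 lost) and 5 to 7 on Day5 (Col6a1, Col14a1 and Pdgfrb lost). In WT it gave 0 to 3 higher and 3 to 9 lower on Day2, 0 to 1 higher and 1 to 3 lower on Day5, and 0 at Week10. No paired analysis was possible because the labels number libraries one by one and the groups share no replicate numbers. Depth limits genes of few reads, and 4 WT NDMA libraries held under 300000 reads.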

Other observations

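The pathway genes that were lower in Mgmt-/- livers on Day1 were also examined in WT. Colec10 had WT medians of 36.3 in saline and 13.4 in NDMA livers (log2 fold change -1.30 ± 0.18 SE), Angptl6 of 17.1 and 5.49 (-1.59), Pth1r of 10.5 and 4.10 (-1.31) and Ltbp4 of 13.3 and 5.64 (-1.33), each with an adjusted p under the threshold by limma. Ednrb (0.65) and Pdgfa (0.79) were higher. Of 19 other stellate cell genes, 13 were tested in WT on Day1, with 1 higher and 6 lower. Of all genes, 5.01% were higher and 4.19% lower.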
